A study of Homo sapiens with 6 samples.

Results

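The DUSP, SPRY and SPRED genes examined here encode inhibitors of receptor tyrosine kinase and MAP kinase signalling. The 10 were chosen by name, with earlier results of these data known. They were DUSP1, DUSP4, DUSP5, DUSP6, DUSP10, DUSP14, SPRY2, SPRY4, SPRED1 and SPRED2. Each was found once by its symbol among 62703 genes of a table of messenger RNA levels, and all 10 were among the 12645 genes that passed the filter on low values. RNA came from the human cell line 786-O, derived from a clear cell carcinoma of the kidney, with 3 libraries from cells labelled as overexpressing OGT and 3 control libraries labelled NC and WT. OGT adds the sugar O-GlcNAc to serine and threonine residues of nuclear and cytosolic proteins. Both groups were grown in RPMI-1640 medium with fetal bovine serum, and the sources used here do not give the vector or promoter, whether the cells were 1 clone or a pool, or whether replicates came from separate cultures. The p-values therefore reflect variation among these libraries, which may be technical.

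In the pathway these genes act on, activated receptor kinases load RAS with GTP, RAS activates RAF, and RAF activates MEK and then ERK, while parallel cascades end in JNK and p38. Many of the inhibitors are themselves induced by MAP kinase activity and so form a negative feedback loop. Dual-specificity phosphatases (DUSP) remove phosphate from the threonine and tyrosine of the MAP kinase activation loop, Sprouty (SPRY) proteins act between the receptor and RAF, and SPRED proteins bring the RAS GTPase-activating protein neurofibromin to the membrane.

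Levels were deposited as TPM, an abundance per transcript length scaled to a common total per library, so levels can be compared between genes but the read depth behind each value is unknown. OGT itself was 352.74, 352.92 and 270.87 TPM in the libraries labelled OGT, against 23.11, 22.57 and 23.62 TPM in control libraries. The renal lineage gene PAX8 was between 183.73 and 209.0 TPM with OGT and between 124.78 and 142.5 TPM in control. Markers of epithelial and mesenchymal state moved with the groups. Vimentin transcripts (VIM) averaged 2773 TPM with OGT and 1872 TPM in control (log2 change 0.57, limma adjusted p = 1.46e-04), N-cadherin transcripts (CDH2) 48.7 and 18.96 TPM (1.32, adjusted p = 1.22e-04) and keratin 18 transcripts (KRT18) 464 and 593 TPM (-0.35, adjusted p = 0.00103). Keratin 8 transcripts (KRT8) averaged 1208 TPM with OGT and 1289 TPM in control (-0.09, adjusted p = 0.0547), while the epithelial genes EPCAM and CDH1 did not exceed 0.7 TPM. Summed haematopoietic markers were 0.24 to 0.71 TPM with OGT and 0.22 to 12.65 TPM in control, the highest being 1 library with 12.23 TPM of PTPRC. Summed endothelial markers were 0.25 to 2.77 TPM with OGT and 0.85 to 8.68 TPM in control, and CDH5 was listed at 0 throughout. Summed fibroblast and pericyte markers were 2.19 to 5.17 TPM with OGT and 1.3 to 3.38 TPM in control. The part of these markers in the results was not tested.

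Transcripts of 8 of the 10 inhibitors rose in OGT-overexpressing cells and 0 fell in limma's moderated test at an adjusted p below 0.05 (8 higher and 0 lower also at an unadjusted p below 0.05). Among all tested genes 39.1% were called higher and 9.7% lower in the same fit. All 10 inhibitors reached 1 TPM in all 6 libraries. Each change is the OGT mean minus the control mean of log2(TPM + 1), a scale that compresses the changes of genes with low levels, and the median was 0.80 for the 10 genes against 0.30 for all tested genes. Where libraries were scaled differently the count of inhibitors called higher was 5 each time and the count called lower was 0. That held under quantile normalization (20.2% of all genes higher and 17.8% lower, median of all genes 0.02), under centring of each library on its median (15.3% and 24.2%, median -0.09), and after a trend of each library on GC content and on the length of the transcript was removed (15.6% and 11.9%, median 0.03). DUSP1, DUSP5, DUSP6, DUSP10 and SPRED2 were the 5 called higher under every scaling. In 9 of the 10 genes the 3 OGT libraries all lay above the 3 control libraries, a separation that 46.2% of tested genes showed upward and 12.4% downward. With 3 libraries against 3, an exact two-sided permutation test of a single gene cannot go below p = 0.1, which those 9 genes reached. In a culture measured in bulk, fewer cells of a kind and less RNA per cell cannot be told apart.

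**Figure D1:**
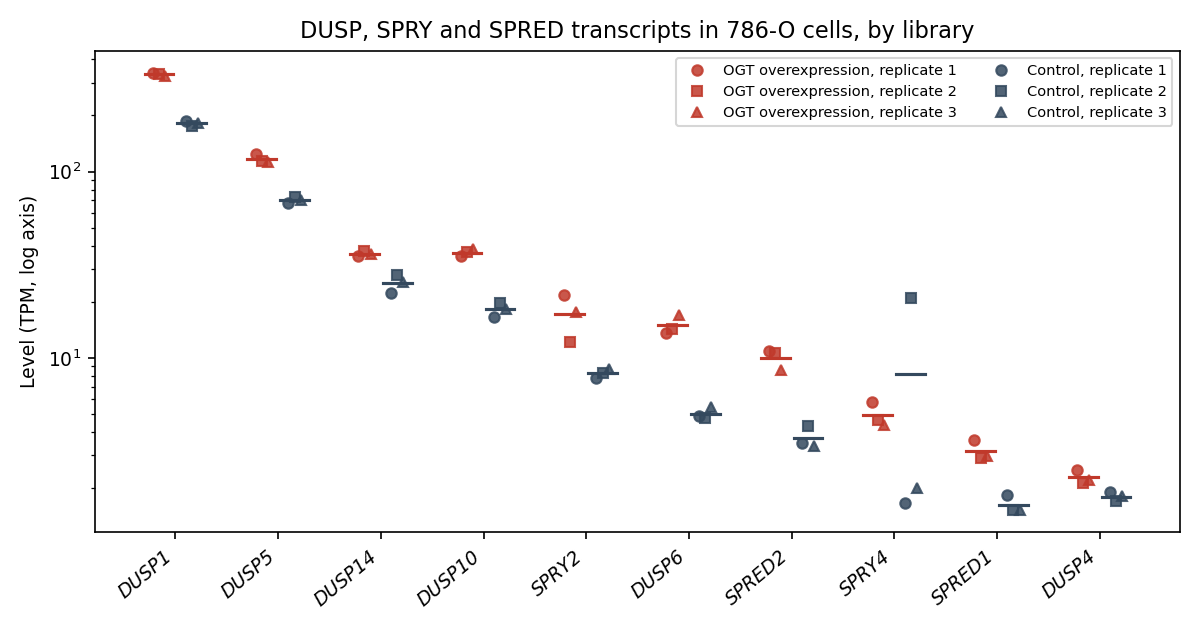
Level of each transcript in TPM (log axis) in the 3 OGT-overexpressing libraries (red, left of each pair) and the 3 control libraries (dark, right), with points for libraries and bars for group means. The levels span DUSP1, at 324.8 TPM or more with OGT, down to DUSP4, at 2.52 TPM or less, and SPRY4 is the gene whose groups overlap, through 1 control library at 21.04 TPM.

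**Figure D2:**
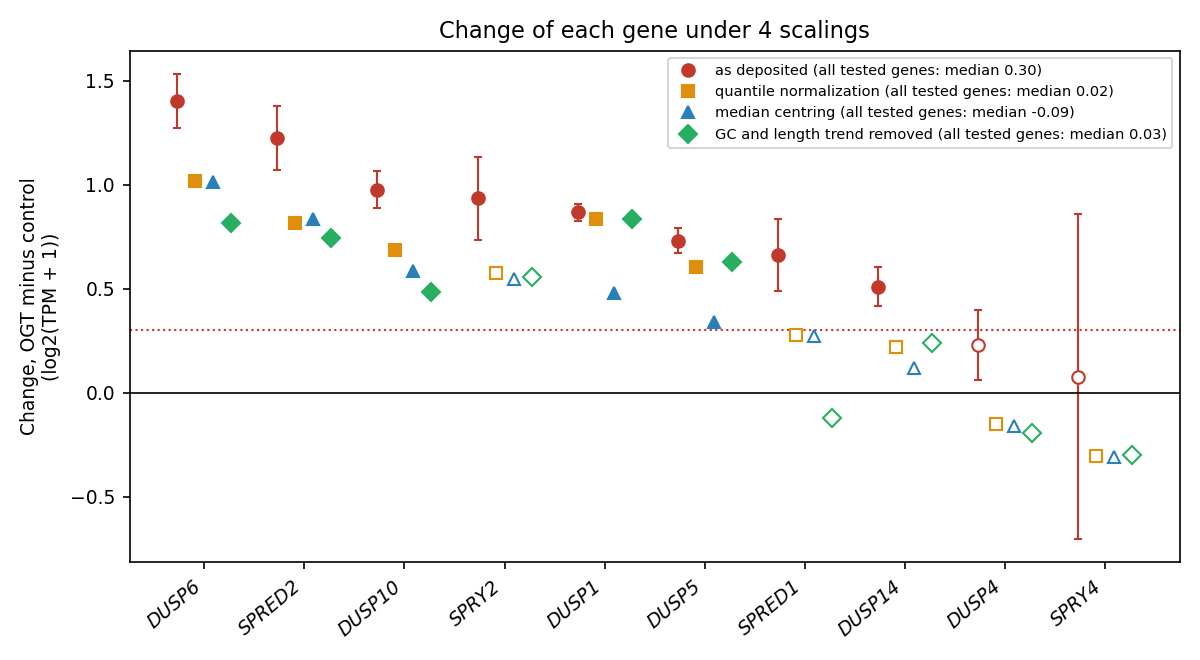
Change of each gene (OGT minus control, log2(TPM + 1)) as deposited with its standard error, and under the other scalings. Filled symbols passed the adjusted p threshold, the dotted line is the median of all tested genes as deposited (0.30), and DUSP4, SPRY4 and SPRED1 are the genes with a value below 0 under at least 1 other scaling.

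RefSeq promoter windows (250 bases before to 50 after an annotated start, GRCh38.p14) were found for 8 of the 10 genes. Shown are DUSP1, which had the highest level, and DUSP6 and SPRED2, which had the largest changes as deposited. SPRED2 has 2 annotated starts, and which start these cells used was not measured for any of these genes. Each is printed 5′ to 3′ on the gene's strand, all 3 genes being on the minus strand, with capitals for matches on either strand to TGACG, to TGACGTCA, which contains it, to TGANTCA, to CCGGAA, to the CArG box or to ACGTG.
DUSP1, chr5:172771146-172771445: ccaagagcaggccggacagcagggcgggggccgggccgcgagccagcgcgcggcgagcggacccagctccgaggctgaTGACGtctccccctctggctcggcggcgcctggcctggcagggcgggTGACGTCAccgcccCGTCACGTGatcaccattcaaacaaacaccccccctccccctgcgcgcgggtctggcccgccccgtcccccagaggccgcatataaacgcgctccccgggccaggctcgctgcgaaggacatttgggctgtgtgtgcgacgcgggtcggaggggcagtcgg
DUSP6, chr12:89352452-89352751: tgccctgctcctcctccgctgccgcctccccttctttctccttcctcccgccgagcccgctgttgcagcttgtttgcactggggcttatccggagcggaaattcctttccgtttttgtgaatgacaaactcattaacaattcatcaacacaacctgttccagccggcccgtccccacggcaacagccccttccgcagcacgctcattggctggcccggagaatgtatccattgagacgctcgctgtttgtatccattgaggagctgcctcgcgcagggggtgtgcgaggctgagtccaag
SPRED2, upstream start, chr2:65432550-65432849: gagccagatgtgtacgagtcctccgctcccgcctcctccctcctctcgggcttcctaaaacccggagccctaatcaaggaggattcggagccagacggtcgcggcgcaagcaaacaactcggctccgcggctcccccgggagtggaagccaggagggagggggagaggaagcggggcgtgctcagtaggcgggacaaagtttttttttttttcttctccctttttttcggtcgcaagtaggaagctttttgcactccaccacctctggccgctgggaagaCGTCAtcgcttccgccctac
SPRED2, downstream start, chr2:65366729-65367028: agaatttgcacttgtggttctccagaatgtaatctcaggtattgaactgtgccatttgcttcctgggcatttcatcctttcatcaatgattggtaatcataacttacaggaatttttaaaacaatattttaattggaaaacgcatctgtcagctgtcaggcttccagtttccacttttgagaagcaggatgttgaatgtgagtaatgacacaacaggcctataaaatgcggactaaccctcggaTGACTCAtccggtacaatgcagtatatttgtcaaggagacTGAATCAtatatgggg

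In the DUSP1 window the cAMP response element TGACGTCA lay at -125 to -118 from the start, and its core TGACG matched at 4 places, some of them overlapping, and ACGTG at 2. TGACGTCA was present in 1.85% of 35114 windows in the table and in 1 of the 12 windows of the 8 genes. The TGACG core was present in 24.6% of all windows and in 5 of those 12, 1 for each of 5 genes (DUSP1, DUSP10, SPRY2, SPRY4 and SPRED2). TGANTCA, with any base at N, is wider than the AP-1 element, which has C or G there. In the downstream SPRED2 window it matched as TGACTCA, an AP-1 element, at -6 to 1. At 35 to 41 it matched as TGAATCA, which is not one. A match with any base at N was present in 7.71% of all windows. CCGGAA, an ETS-type core, was found in SPRY2 alone (17.2% of all windows), ACGTG in DUSP1 alone (21.4%) and the CArG box in none of the 12 (1.29%). The DUSP6 window held no match to any of these motifs. It lies wholly inside the annotated span of the gene (89347232 to 89353271), so sequence before the outer end of that span was not searched.

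Among the inducible nuclear phosphatases DUSP1 and DUSP5 rose and DUSP4 was not called. DUSP1 (ENSG00000120129, chromosome 5, 172768090 to 172771195, minus strand, GENCODE release 29 annotation of GRCh38) encodes an immediate early phosphatase for p38, JNK and ERK. It was 339.35, 332.74 and 324.8 TPM with OGT, against 186.24, 175.66 and 182.81 TPM in control. The OGT libraries were all well above the controls, with means of 332 ± 7.29 and 182 ± 5.40 TPM (SD, n = 3 each), a 1.83-fold level. The log2 change was 0.87 (SE 0.0411, limma adjusted p = 4.03e-05), and 0.83 with the GC and length trend removed and 0.48 after median centring. By level DUSP1 stood above 95.4% of tested genes.

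DUSP5 (ENSG00000138166, chromosome 10, 110497838 to 110511544, plus strand) encodes a nuclear phosphatase selective for ERK. It was 124.25, 114.48 and 113.02 TPM with OGT, against 67.42, 72.62 and 70.54 TPM in control. Every OGT library again exceeded every control library, at means of 117 ± 6.11 and 70.2 ± 2.62 TPM. The log2 change was 0.73 (SE 0.0591, adjusted p = 1.82e-04), with 0.63 after trend removal and 0.34 after median centring.

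DUSP4 (ENSG00000120875, chromosome 8, 29333064 to 29350668, minus strand), whose product is a nuclear phosphatase for ERK, JNK and p38, was 2.52, 2.13 and 2.22 TPM with OGT, against 1.9, 1.7 and 1.81 TPM in control. The groups did not overlap but lay within 1 TPM of each other, and the change of 0.23 (SE 0.167, adjusted p = 0.294) was below the median of all tested genes. It was -0.15, -0.16 and -0.19 under quantile normalization, median centring and trend removal, without a call in any of 13 other settings of the processing. DUSP2, the remaining nuclear inducible phosphatase gene, did not exceed 0.28 TPM and was not tested.

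DUSP6 showed the largest change of the 10 genes as deposited, and after trend removal DUSP1 (0.83) was level with it (0.82). DUSP6 (ENSG00000139318, chromosome 12, 89347232 to 89353271, minus strand) encodes a cytoplasmic phosphatase selective for ERK. It was 13.58, 14.36 and 17.02 TPM with OGT, against 4.89, 4.76 and 5.44 TPM in control. The means of 15.0 ± 1.80 and 5.03 ± 0.361 TPM are 2.98-fold apart. The log2 change of 1.40 (SE 0.130, adjusted p = 2.93e-04) was larger than 97.3% of all tested changes, and was 0.82 after trend removal and 1.01 after median centring, called in all 14 other settings.

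Of the other 2 cytoplasmic ERK phosphatase genes, DUSP7 rose to 14.9 ± 0.538 TPM with OGT, against 8.37 ± 0.523 TPM in control (log2 change 0.76, adjusted p = 0.00117, 0.63 after trend removal). DUSP9 was 0.9, 0.69 and 1.05 TPM with OGT, against 25.86, 0.97 and 1.24 TPM in control. Its level was therefore near 1 TPM in 5 libraries and high in control replicate 1, and no call was made (log2 change -1.39, adjusted p = 0.276).

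DUSP10 (ENSG00000143507, chromosome 1, 221701424 to 221742176, minus strand) encodes a phosphatase that prefers JNK and p38 over ERK. It was 35.02, 36.87 and 38.39 TPM with OGT, against 16.58, 19.71 and 18.38 TPM in control. The OGT level was 2.02-fold that of control, with means of 36.8 ± 1.69 and 18.2 ± 1.57 TPM. Its log2 change was 0.98 (SE 0.0891, adjusted p = 2.75e-04), 0.48 after trend removal and 0.59 after median centring. The other phosphatase genes of this class were not called. DUSP16, which encodes a JNK phosphatase, was 3.43, 3.09 and 2.51 TPM with OGT, against 2.41, 1.4 and 1.94 TPM in control (log2 change 0.47, adjusted p = 0.102), and its change was -0.13 after trend removal. DUSP8 was 2.4, 0.87 and 0.67 TPM with OGT, against 3.44, 1.63 and 14.28 TPM in control (log2 change -1.36, adjusted p = 0.129). The DUSP8 change was smaller without its high library, and without control replicate 3 the log2 change was -0.64 (adjusted p = 0.243). It was called lower only without control replicate 2 among the 6 fits that leave out a library (-1.91, adjusted p = 0.0463).

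DUSP14 (ENSG00000276023, chromosome 17, 37489831 to 37513501, plus strand) encodes a small atypical phosphatase without the MAP kinase binding domain, known for damping T cell receptor signalling. It was 35.41, 37.27 and 35.89 TPM with OGT, against 22.18, 27.85 and 25.57 TPM in control. The groups were apart, with a log2 change of 0.51 (SE 0.0953, adjusted p = 0.00456). The call ended under quantile normalization, median centring and trend removal (log2 changes 0.22, 0.12 and 0.24), and adjusted p ran from 0.00273 to 0.406 over 14 other settings.

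In the whole list of 14 atypical phosphatase genes, which holds DUSP14, 9 were tested and 5 rose and 1 fell. The median change was 0.51 as deposited and 0.05 after trend removal, when 2 rose and 0 fell. For all tested genes the medians were 0.30 and 0.03. As deposited 39.1% of all tested genes were called higher and 9.7% lower, and after trend removal 15.6% and 11.9%. DUSP11, whose product removes phosphates from RNA 5′ ends, rose to 12.5 ± 1.92 TPM with OGT, against 5.40 ± 0.395 TPM in control (log2 change 1.07, corrected 0.55). DUSP12 rose to 21.2 ± 0.920 TPM, against 10.1 ± 2.20 TPM in control (1.01, corrected 0.85). Both kept their calls after trend removal. DUSP3, which encodes a phosphatase for ERK and JNK, had a log2 change of 0.65, and the pseudophosphatase gene STYX one of 0.77, and after trend removal neither was called (0.21 and 0.05). Under quantile normalization and median centring DUSP3 was called (0.35 and 0.26) and STYX was not (0.41 and 0.38). STYX was 1.68, 1.63 and 2.3 TPM with OGT, against 0.78, 0.74 and 0.52 TPM in control, so it passed the filter of 1 TPM in 3 libraries only through the OGT group. DUSP23 fell to 133.09, 144.41 and 150.86 TPM with OGT, against 167.29, 183.2 and 186.86 TPM in control (log2 change -0.33, adjusted p = 0.00648), and was at 0.01 after trend removal. DUSP18, DUSP22 and DUSP28 were not called, with log2 changes of 0.03, 0.05 and 0.15, each of them negative under the other scalings.

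Of the SPRY genes SPRY2 rose and SPRY4 was not called. SPRY2 (ENSG00000136158, chromosome 13, 80335976 to 80340951, minus strand) encodes a Sprouty protein that binds the ubiquitin ligase CBL and the adaptor GRB2. It was 21.81, 12.2 and 17.66 TPM with OGT, against 7.82, 8.34 and 8.76 TPM in control. The OGT libraries were all higher and were more spread than the control libraries, with means of 17.2 ± 4.82 and 8.31 ± 0.471 TPM. The log2 change was 0.93 (SE 0.20, adjusted p = 0.00794). It was 0.58, 0.55 and 0.56 under quantile normalization, median centring and trend removal, without a call under these 3, and adjusted p ran from 0.00297 to 0.0891 over 14 other settings.

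SPRY4 (ENSG00000187678, chromosome 5, 142310427 to 142326455, minus strand), whose product inhibits RAS-ERK signalling below growth factor receptors, was 5.82, 4.66 and 4.39 TPM with OGT, against 1.67, 21.04 and 2.0 TPM in control. The 3 OGT libraries lay between the single high control library and the 2 low ones. With all 6 libraries the log2 change was 0.08 (SE 0.781, adjusted p = 0.943), and -0.30, -0.31 and -0.30 under quantile normalization, median centring and trend removal. Without control replicate 2, SPRY4 was called higher with a log2 change of 1.07 (adjusted p = 0.00997). It was then also called after trend removal (0.70, adjusted p = 0.0463) and after median centring (0.70, adjusted p = 0.0439), both fits added after the data were seen. In these fits 6 inhibitors were called higher and 0 lower, against 12.5% of all tested genes higher and 9.05% lower after trend removal and 13.0% and 20.0% after median centring. The inhibitor gained was SPRY4 itself, and the library left out was the one where it was high, so that count is no further support. Without control replicate 1 or 3 instead, the SPRY4 log2 change was -0.46 and -0.37, not called. Over the 14 other settings first chosen, adjusted p ran from 0.00997 to 0.988. The antisense gene SPRY4-AS1 (chromosome 5, 142325293 to 142672001, plus strand) overlaps the 5′ end of SPRY4, and the strandedness of the library is not stated, so reads in the overlap could belong to either gene. SPRY4-AS1 was listed at 0, 0.4 and 0.2 TPM with OGT, against 34.7, 2.78 and 2.04 TPM in control, so its highest library was control replicate 1 and that of SPRY4 was control replicate 2. SPRY4-AS1 passed the filter only through the control group, where it was high, so its difference is given as these values alone.

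Other genes also had a single high library. Between 49 and 133 genes of an OGT library, and between 92 and 255 of a control library, were at 5 TPM or more and at least 5-fold above both other libraries of their group. In the DUSP, SPRY and SPRED families SPRY4 in control replicate 2 and DUSP9 in control replicate 1 met this rule, which was set after the data were seen. DUSP8 and SPRED3, which encodes another SPRED protein, did not meet it. SPRED3 was 1.87, 2.99 and 12.26 TPM with OGT, against 7.38, 3.63 and 1.79 TPM in control, so each group had a raised library. It was left uncalled (log2 change 0.16, adjusted p = 0.855). What raised single libraries was not tested. SPRY1 and SPRY3 did not exceed 0.37 TPM and were not tested.

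**Figure D3:**
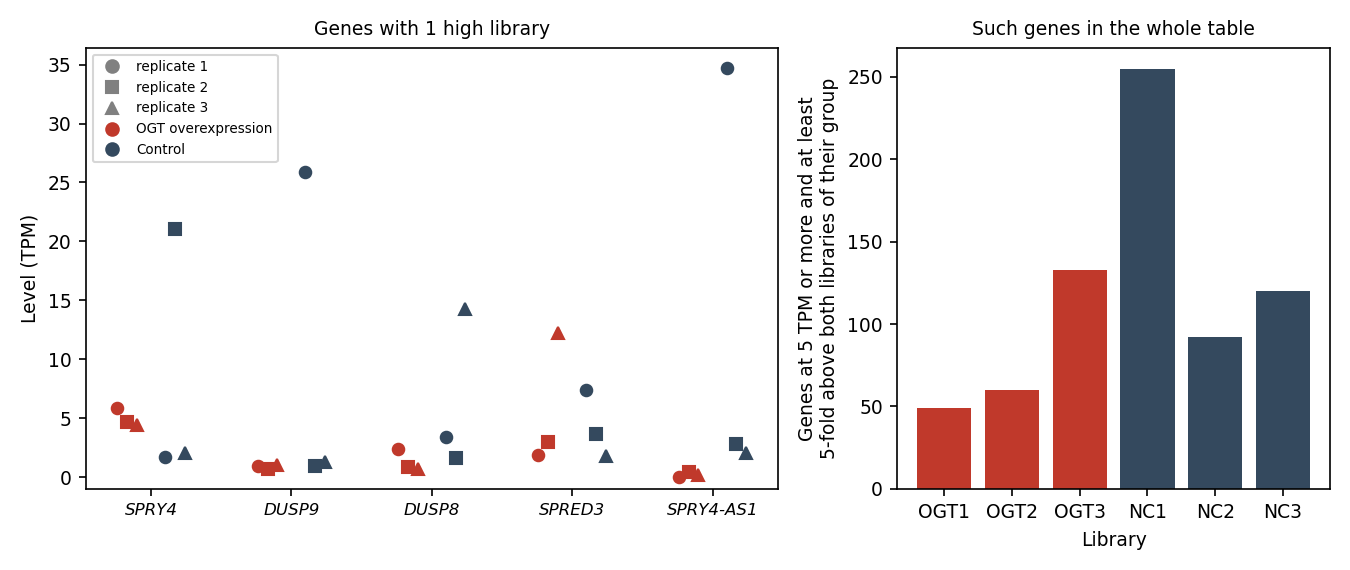
Left, levels in TPM of SPRY4, DUSP9, DUSP8, SPRED3 and SPRY4-AS1 in each library (OGT red, left; control dark, right; symbols give the replicate). Right, number of genes in the table at 5 TPM or more and at least 5-fold above both other libraries of their group, from 49 in OGT replicate 1 to 255 in control replicate 1. DUSP8 and SPRED3, shown on the left, did not meet that rule.

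SPRED1 and SPRED2 both rose as deposited, and of these SPRED2 was also called under the other scalings. SPRED2 (ENSG00000198369, chromosome 2, 65310851 to 65432637, minus strand) was 10.94, 10.57 and 8.65 TPM with OGT, against 3.5, 4.3 and 3.39 TPM in control. Every OGT library was above every control library, and the means were 10.1 ± 1.23 and 3.73 ± 0.497 TPM. Its log2 change was 1.22 (SE 0.154, adjusted p = 8.99e-04), larger than 94.4% of all tested changes, with 0.74 after trend removal and 0.83 after median centring. SPRED1 (ENSG00000166068, chromosome 15, 38252326 to 38357249, plus strand), the gene mutated in Legius syndrome, was 3.61, 2.9 and 2.99 TPM with OGT, against 1.83, 1.52 and 1.53 TPM in control. The groups did not overlap, and the log2 change was 0.66 (SE 0.174, adjusted p = 0.0178). It was 0.28 after quantile normalization and median centring and -0.12 after trend removal, none of them called. Leaving out OGT replicate 1 also ended the call (adjusted p = 0.0646), as did leaving out control replicate 2 (adjusted p = 0.0526), within a range of 0.00441 to 0.472 over 13 other settings.

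By median level the order with OGT was DUSP1, DUSP5, DUSP10, DUSP14, SPRY2, DUSP6, SPRED2, SPRY4, SPRED1 and DUSP4, and in control DUSP14 stood above DUSP10 and DUSP4 above SPRED1. The 6 DUSP members summed to between 531 and 550 TPM with OGT and between 299 and 305 TPM in control. DUSP1 made up 61.1% to 61.9% of that sum with OGT and 58.1% to 62.2% in control, so its share overlapped between the groups. DUSP6 made up 2.47% to 3.20% with OGT and 1.57% to 1.79% in control, without overlap. With OGT the libraries of DUSP10 and DUSP14 overlapped, as did those of SPRY2 and DUSP6, while in control DUSP14 lay above DUSP10 and SPRY2 above DUSP6 in every library. In control SPRY4 overlapped several neighbours through its 1 high library. SPRED1 and DUSP4 overlapped in control and were apart with OGT, SPRED1 being the higher.

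Ratios of 2 members within a library, taken from the deposited TPM, do not change when a library is multiplied by 1 factor, but quantile normalization and trend removal do alter them. The level of DUSP1 was 19.1 to 25.0 times that of DUSP6 with OGT and 33.6 to 38.1 times in control (exact two-sided permutation p = 0.1, the smallest possible). For DUSP5 over DUSP6 the ratio was 6.64 to 9.15 with OGT and 12.97 to 15.3 in control (exact permutation p = 0.1). The ratio of the 2 nuclear phosphatases, DUSP1 over DUSP5, was 2.73 to 2.91 with OGT and 2.42 to 2.76 in control, and the groups overlapped (exact permutation p = 0.2). SPRED2 over SPRED1 was 2.89 to 3.64 with OGT and 1.91 to 2.83 in control (exact permutation p = 0.1). On the log2(TPM + 1) scale, which unlike these ratios compresses changes at low levels, DUSP1 and DUSP6 changed by 0.87 and 1.40 as deposited. After trend removal their changes on that scale were 0.83 and 0.82, so the shift between these genes was not present there. Under quantile normalization they were 0.84 and 1.02. DUSP5 changed by 0.63 after trend removal and by 0.61 under quantile normalization. The ratios among DUSP1, DUSP5 and DUSP6 share members, and none of these 4 ratios can pass a threshold of 0.05 in this design.

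Across all tested genes, which are not independent replicates, the change followed GC content and transcript length (Spearman correlation -0.47 and 0.39). Whether GC content or length altered the values of the members was not tested. The trend is fitted on GC content and length, so how far a member moved on its removal is set by them. GC content of the members' reference transcripts ran from 38.9% in SPRED1 to 55.9% in DUSP5, around a median of 50.1% of all tested genes. Their length ran from 2019 bases in DUSP1 to 7780 bases in SPRED1, around a median of 3030 bases. DUSP1 and DUSP5, at 55.1% and 55.9% GC, had changes that moved least on trend removal (0.87 and 0.83, 0.73 and 0.63). SPRED1, the longest and most AT-rich, moved most (0.66 and -0.12). The reference transcript is the longest protein-coding one in the annotation and need not be the one these cells express.

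Lists of the surrounding pathway held 79 tested genes besides the 10, of which 49 (62.0%) rose and 3 (3.8%) fell (DUSP23, PEBP1 and MAPK11, the last named after its values were seen). Of all tested genes 39.1% were called higher and 9.7% lower. After trend removal 22 (27.8%) were higher and 5 (6.33%) lower (GAB1, GRB2, KSR1, YWHAB and PEBP1, of which all but PEBP1 were named after their values were seen), against 15.6% and 11.9% of all tested genes. After median centring 20 (25.3%) were higher and 14 (17.7%) lower, against 15.3% and 24.2%. Of the 49 genes 8, STYX and LAMTOR3 among them, reached 1 TPM in every OGT library but not in every control library, and so passed the filter through the group where they were high. Of 8 tested receptor kinase genes 5 rose and 0 fell, with 4 still higher after trend removal and after median centring. MET, the hepatocyte growth factor receptor gene, rose to 25.4 ± 2.69 TPM with OGT, against 7.48 ± 1.06 TPM in control (log2 change 1.64, corrected 0.88). EGFR and the receptor kinase gene AXL had log2 changes of 1.48 and 0.89 (corrected 0.91 and 0.57). FGFR1 and ERBB2 were the other 2 called, and of those FGFR1 kept its call after trend removal.

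For comparison, 39.1% of all tested genes were called higher and 9.7% lower as deposited. The same shares were 15.6% and 11.9% after trend removal and 15.3% and 24.2% after median centring. In the list of adaptors and RAS regulators 9 of 13 rose and 0 fell as deposited. There 2 rose and 2 fell after trend removal, against 2 and 1 after median centring. PTPN11, which encodes the phosphatase SHP2, rose to 9.86 ± 0.320 TPM with OGT, against 3.30 ± 0.955 TPM in control (log2 change 1.36, corrected 0.59). CBL and the RAS GTPase-activating protein gene RASAL2 had log2 changes of 0.82 and 0.80 and were not called after trend removal (0.20 and 0.11). TESK1, which encodes a kinase that binds SPRY4 and was the other gene called after trend removal, was named after its values were seen (0.54, corrected 0.55). NF1, the neurofibromin gene whose product SPRED proteins recruit, was 4.96, 4.98 and 4.97 TPM with OGT, against 1.88, 1.37 and 7.52 TPM in control, without a call (log2 change 0.62, adjusted p = 0.301). Of 14 RAS-RAF-MEK-ERK genes 11 rose and 0 fell, and after trend removal 4 were higher and 2 lower and after median centring 3 were higher and 3 lower. NRAS rose to 15.1 ± 0.228 TPM with OGT, against 5.75 ± 0.258 TPM in control (1.26, corrected 0.51). LAMTOR3, encoding a MEK and ERK scaffold, had a log2 change of 1.81 (corrected 1.08), with control libraries at 0.74, 1.5 and 0.69 TPM.

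Across all tested genes 39.1% were called higher and 9.7% lower as deposited. These shares were 15.6% and 11.9% after trend removal and 15.3% and 24.2% after median centring. Genes known to be induced by ERK activity rose in 10 of 12 cases and 0 fell. After trend removal 7 were higher and 0 lower, and after median centring 4 were higher and 2 lower (IER3 and SPHK1, named after their values were seen). Those 2 had changes of 0.10 and 0.18 as deposited, the first not called, and of -0.29 and -0.21 after median centring. After trend removal both were called higher (0.26 and 0.21, adjusted p = 0.00710 and 0.0188), so their calls turned between these scalings. MYC rose to 138 ± 6.29 TPM with OGT, against 74.9 ± 2.30 TPM in control (log2 change 0.87, corrected 0.75). CCND1 and PHLDA1 had log2 changes of 1.01 and 0.80, and PHLDA1 was not called after trend removal (0.59 and 0.09). Under quantile normalization and median centring PHLDA1 was called (0.60 and 0.41). Of 6 tested genes for other feedback inhibitors 2 rose and 1 fell. ERRFI1, which encodes an inhibitor of EGFR family kinases, rose to 86.8 ± 3.61 TPM with OGT, against 37.6 ± 0.754 TPM in control (log2 change 1.19, adjusted p = 4.28e-05, corrected 0.57). The pseudokinase gene TRIB1 had a log2 change of 0.70 and lost its call after trend removal (0.39), and PEBP1, which encodes a RAF inhibitor, had one of -0.42 (corrected -0.43). SOCS3 and PEA15, not called as deposited, were lower with PEBP1 after median centring and were named after their values were seen. In the p38 and JNK cascade 7 of 13 genes rose and 1 fell, and after trend removal 1 rose (MAPKAPK2, named after its values were seen) and 0 fell. After median centring 2 were higher and 4 lower. MAP3K7, MAPK9 and MAPK13 had log2 changes of 0.98, 0.93 and 0.90, all without a call after trend removal (0.22, 0.22 and 0.50). MAP3K7 and MAPK9 were called under quantile normalization and median centring, and MAPK13 under neither.

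**Figure D4:**
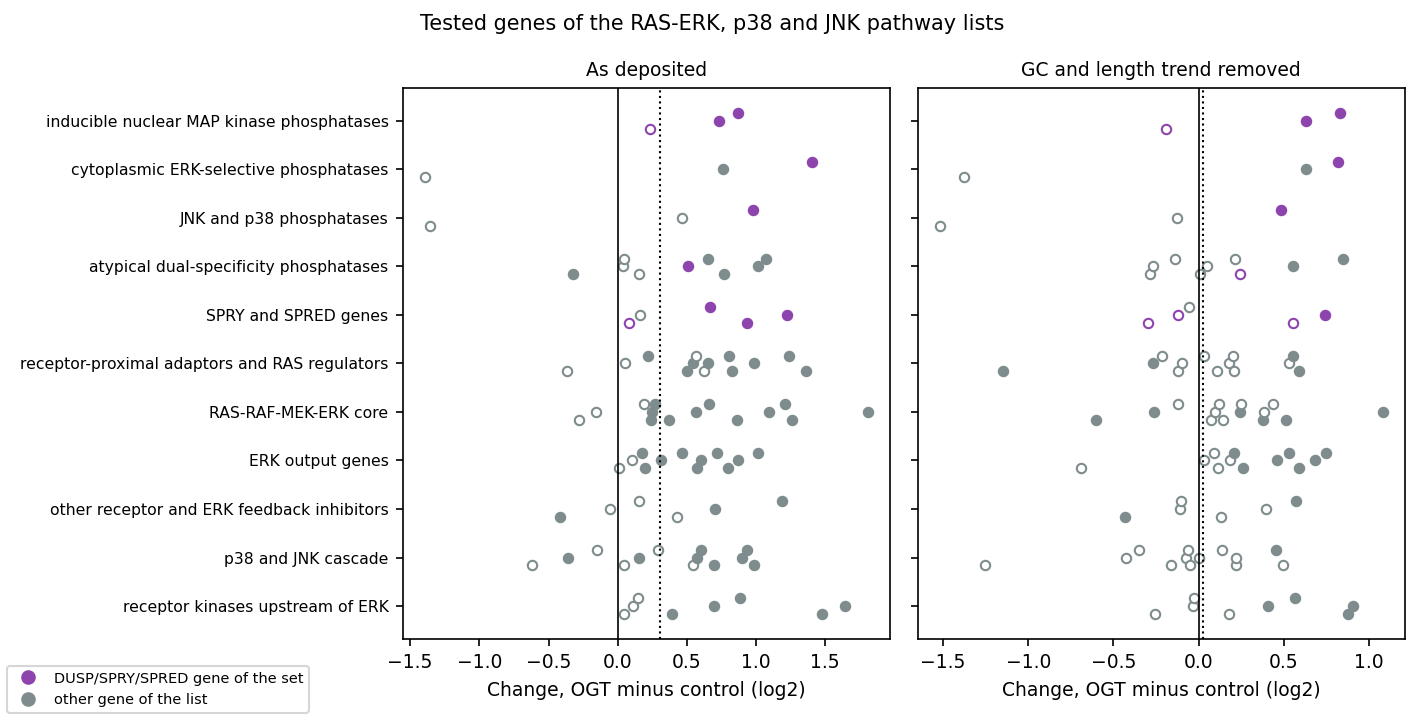
Change of every tested gene in the 11 pathway lists (OGT minus control, log2(TPM + 1)) as deposited and with the GC and length trend removed. Purple points are the 10 DUSP, SPRY and SPRED genes, filled points passed the adjusted p threshold, and dotted lines are the medians of all tested genes (0.30 and 0.03).

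Among tested genes averaging 5 TPM or more, the 3 with values over the 6 libraries nearest to those of DUSP6 were found by the root mean square difference of centred log2(TPM + 1). They were VTA1, of the endosomal sorting machinery (difference 0.0511), the interferon-inducible gene IFI6 (0.0547) and the CDK2-associated gene CDK2AP1 (0.0659). IFI6 was 527.99, 539.71 and 628.56 TPM with OGT, against 210.35, 223.99 and 239.4 TPM in control, so OGT replicate 3 was the highest, as for DUSP6. The log2 changes of VTA1, IFI6 and CDK2AP1 were 1.32, 1.33 and 1.44, and 0.54, 1.55 and 1.22 after trend removal. They were picked by these same libraries, so their likeness to DUSP6 as deposited follows from the choice.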

How the data were processed

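Expression was measured by RNA sequencing of total RNA with a TruSeq RNA kit, per the labels' protocols. The authors deposited TPM per gene, 1 column per library, with human Ensembl identifiers. Only mouse builds (GRCm38 and mm10) appear in the submitters' processing notes. For the aligner, the counter and the annotation nothing is stated in the sources used here. TPM keeps no read total, so no counting interval is given.

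The 12645 genes reaching 1 TPM in 3 or more libraries were compared on the log2(TPM + 1) scale by limma (version 3.58.1, R version 4.3.3, eBayes with trend and robust, two-sided, Benjamini-Hochberg over all tested genes, threshold 0.05), a test tried on simulated data. Exact permutation tests used SciPy 1.17.1. GC content, length and coordinates came from GENCODE release 29 by identifier (97.7% of tested genes), and the trend was fitted per library with natural splines of 4 degrees of freedom. Same-numbered libraries were not treated as pairs.

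The members and pathway lists were chosen with earlier results of these data known. Named genes were the 10 members, OGT, other tested family genes, up to 3 called genes per list with a group mean of at least 5 TPM and the largest changes, and the 3 genes most like DUSP6.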

Additional observations from a re-analysis of the deposited data

How the results depend on the processing

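Calls of DUSP1, DUSP5, DUSP6, DUSP10 and SPRED2 held in all 14 other settings, with log2 changes from 0.48 to 0.89, 0.34 to 0.76, 0.82 to 1.55, 0.48 to 1.03 and 0.74 to 1.41. These settings were a pseudocount of 0.1, no filter, a mean of at least 5 TPM, the other scalings, a plain eBayes, the replicate block and each library left out. Genes called higher and lower numbered 4941 and 1227 as deposited, against 2558 and 2245 under quantile normalization, 1937 and 3066 under median centring, and 1922 and 1474 with the GC and length trend removed. The inhibitors called higher numbered 5 under each of these 3, and 6 when control replicate 2 was left out with median centring or with trend removal, fits added after the data were seen in which 13.0% and 12.5% of all tested genes were higher. The inhibitor gained there was SPRY4, which was high in the library left out. Leaving out each library gave 7 or 8 inhibitors, 3899 to 4604 genes higher and 989 to 1127 lower. Pathway genes called higher were 28, 20 and 22, and lower 7, 14 and 5, under the same 3 scalings in that order, 43 and 2 with no filter or the replicate block, 35 and 4 at a mean of at least 5 TPM, and 38 to 46 and 2 to 4 with each library left out.

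Signs turned for some genes, and the cause was not tested. In the order quantile normalization, median centring, trend removal, log2 changes were -0.15, -0.16 and -0.19 for DUSP4, -0.30, -0.31 and -0.30 for SPRY4, -0.34, -0.35 and -0.28 for DUSP18, -0.29, -0.34 and -0.27 for DUSP22, -0.20, -0.24 and -0.14 for DUSP28, and -0.23, -0.23 and -0.054 for SPRED3. Trend removal alone gave -0.12 for SPRED1, -0.13 for DUSP16 and 0.0071 for DUSP23. Without control replicate 2 as well, DUSP4 was at -0.21 after trend removal and -0.16 after median centring, and SPRED1 at -0.12 after trend removal. With each library left out, SPRY4 ranged from -0.46 to 1.07, DUSP18 from -0.12 to 0.18, DUSP22 from -0.064 to 0.24, DUSP28 from -0.14 to 0.44 and SPRED3 from -0.49 to 0.61.

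The replicate numbers were not shown to pair the libraries, since deviations of same-numbered libraries correlated at -0.0194, 0.00264 and 0.0166 and 1 of 6 libraries correlated best with its own number. With the replicate block 4382 genes were higher and 1091 lower, and 8 inhibitors were higher and 0 lower. DUSP4 and SPRED1 have no value at a mean of at least 5 TPM. Read depth is unknown, so counting error at their low levels could not be given.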

Other observations

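DUSP5-DT, the divergent transcript beside DUSP5, was 13.94, 9.85 and 2.23 TPM with OGT, against 2.95, 5.97 and 6.7 TPM in control, so its groups overlapped where those of DUSP5 did not (log2 change 0.43, limma adjusted p = 0.570). The renal cadherin gene CDH6 shared the single high library of SPRY4, at 7.6, 7.17 and 6.45 TPM with OGT, against 2.69, 28.69 and 3.05 TPM in control. Both genes had OGT libraries above 2 of the 3 control libraries and below control replicate 2. MAP3K5, which encodes a kinase of the JNK and p38 cascade, was 3.84, 3.25 and 4.85 TPM with OGT, against 22.54, 3.6 and 3.05 TPM in control, where the high library was control replicate 1, as for DUSP9 and SPRY4-AS1. All were picked with their values in view, and no explanation was tested.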
